A study of Homo sapiens with 7 samples.

Results

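The 4 RNA-seq samples of HEL cells that received a CRISPR guide against WTAP were described by their absolute mRNA levels. They were chosen by title, as all samples labelled WTAP sg1 or WTAP sg2, and they make up 4 of the 7 samples of the series, with 2 samples for sg1 and 2 for sg2. The remaining samples carried a non-targeting guide (NTC), and no level in them was compared here. HEL is a human erythroleukemia line, and the labels name it for the NTC samples only, so that the line of the WTAP samples was taken from the study's methods. All 4 samples shared the lentiCRISPRv2 vector, which delivers Cas9 with the guide, and the labels call both guides a knockout of WTAP. Cells transduced with such a vector can be a mixture of edited and unedited alleles, and nothing in the labels describes them as a clone. The day of harvest after transduction was not given for these samples in the sources used here, and nothing says that replicates of a guide were separate cultures. The protocol in the labels speaks of cultures harvested repeatedly over weeks, and does not tie a harvest to a replicate number, so the spread between them may be technical.

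N6-methyladenosine (m6A) is a methyl mark that a multi-subunit complex places on mRNA as it is made. METTL3 is the catalytic subunit, METTL14 its partner in binding RNA, and WTAP the adapter that brings the pair together with the accessory subunits. Erythroleukemia lines such as HEL stand near the branch point of the erythroid and megakaryocyte lineages, where GATA1 and its partner factors act, and they can carry genes of other blood lineages at the same time. The question asked of the files was which of these programs the WTAP guide cells held as mRNA, and how closely the 4 samples agreed.

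The study's supplement marks 2 WTAP guides, listed for its screen retests, as used individually. They are shown as candidates for sg1 and sg2, since the sample titles name no guide sequence. The supplement does not say which of them, if either, is sg1 and which is sg2. Lower case gives the 20 bases of the guide, 5′ to 3′, and capitals mark the PAM, the bases beside the target that Cas9 requires, as read from GRCh37.
sgWTAP_1: cgaagaacctcttcccaagaAGG
sgWTAP_10: aagttgtgcaatacgtccctGGG
The first lies on the plus strand at chr6:160157306-160157325, in exon 2 of 8 of the canonical WTAP transcript, and its cut falls in coding sequence of all 5 protein-coding WTAP transcripts of the annotation (GENCODE v44 lifted to GRCh37). The second lies on the minus strand at chr6:160174569-160174588, in exon 7 of 8, and its cut falls in coding sequence of 2 of the 5. Each guide had 1 exact match with an NGG PAM in the chromosomes of GRCh37. WTAP itself spans chr6:160146617-160177351 on the plus strand.

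WTAP mRNA remained measurable in every sample. It stood at 123 and 140 CPM (counts per 1000000 counted reads) in the sg1 samples and at 84.8 and 114 CPM in the sg2 samples, with a mean of 115 ± 23.0 CPM (SD, n = 4). The lowest value was in sg2 replicate 1, and the ranges of the guides did not overlap. The difference between the guides was -0.41 ± 0.16 (SE) on the log2(CPM + 1) scale, with an adjusted p of 0.20 by limma. A CPM value counts reads from edited and unedited transcripts alike and says nothing of WTAP protein.

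Recovered depth was 26.3 M reads (M, 1000000) in sg1 replicate 1 and 15.9 to 17.5 M in the other 3 samples. A symbol was called detected at 1 CPM or more in all 4 samples, at the floor with 3 reads or fewer in each of them, and low otherwise. The 3-read floor was 0.114 to 0.189 CPM depending on the sample, and such floors cover counting error only. Of 25370 symbols listed, 12266 were detected (48.3%), 3511 were low and 9593 were at the floor. Among 18985 protein-coding symbols 11535 were detected (60.8%), and among 1923 lncRNA symbols 347 were (18.0%). In all 4 samples 9254 symbols reached 10 CPM, 2096 reached 100 CPM and 54 reached 1000 CPM. The counts of the gene lists below are to be read against the share of protein-coding symbols. An entry of 0 was not always informative. None of the 26 symbols with copies on both X and Y was detected and 20 were listed at 0 throughout, among them SLC25A6, an ADP/ATP carrier that cells use generally, and CD99. SMN1 and SMN2, near-identical copies of a gene needed in all cells, were also listed at 0.

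The most abundant mRNAs encoded the translation machinery. CPM grows with transcript length, so levels were compared between genes as CPM per kilobase of merged exons, rescaled to sum to 1000000 (called TPM-like). The highest on that scale was RPS18 at 7347 ± 921 TPM-like (SD, n = 4), followed by RPS6 at 6678 ± 1177, RPS12 at 6602 ± 476 and the elongation factor EEF1A1 at 6033 ± 815. Merged exons spanned 10063 bases for EEF1A1 against 1834 for RPS18 and 639 for RPS12, and the order depends on these lengths. RPS6 lay closer to both RPS18 and RPS12 than its own SD. RPS12 and EEF1A1 lay further apart than the SD of RPS12 but closer than that of EEF1A1, so the order of neighbours is uncertain. The 84 symbols of cytosolic ribosomal proteins took 7.23% ± 0.86 of all reads, with 80 of them detected. In CPM, EEF1A1 led with 14957 and 10872 in the sg1 samples and 15011 and 12915 in the sg2 samples. The 10 highest symbols took 4.33% ± 0.47 of reads and the 25 highest took 7.18% ± 0.58, and 1157 symbols were needed to reach 50% of reads. MTRNR2L2 ranked among the 10 highest in CPM, at 3012 to 4313, but such symbols are nuclear copies of the mitochondrial 16S rRNA gene and reads of either cannot be told apart.

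Genes outside the translation machinery also stood among the 25 highest per length, some of them with a narrower range of tissues. PIM1, a serine/threonine kinase downstream of JAK-STAT signaling, was 11th per length at 3965 ± 390.2 TPM-like. It was at 2873, 2293, 2919.8 and 2549.9 CPM in sg1 replicates 1 and 2 and sg2 replicates 1 and 2. LAPTM5, a lysosomal membrane protein of blood cells, was 21st per length with 2863 ± 378. FTL, the light chain of the iron store ferritin, held 4564 ± 342 and TMSB10, an actin-binding peptide, 3306 ± 777. The chaperone HSP90AB1 was at 5617 ± 356 and HMGA1, a chromatin protein of dividing cells, at 3205 ± 159. The last of the 25 was RPS27 at 2731, and B2M, the light chain of MHC class I, stood just outside at 2561. With the length of the longest transcript in place of merged exons, 19 of the same 25 symbols remained.

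**Figure D1:**
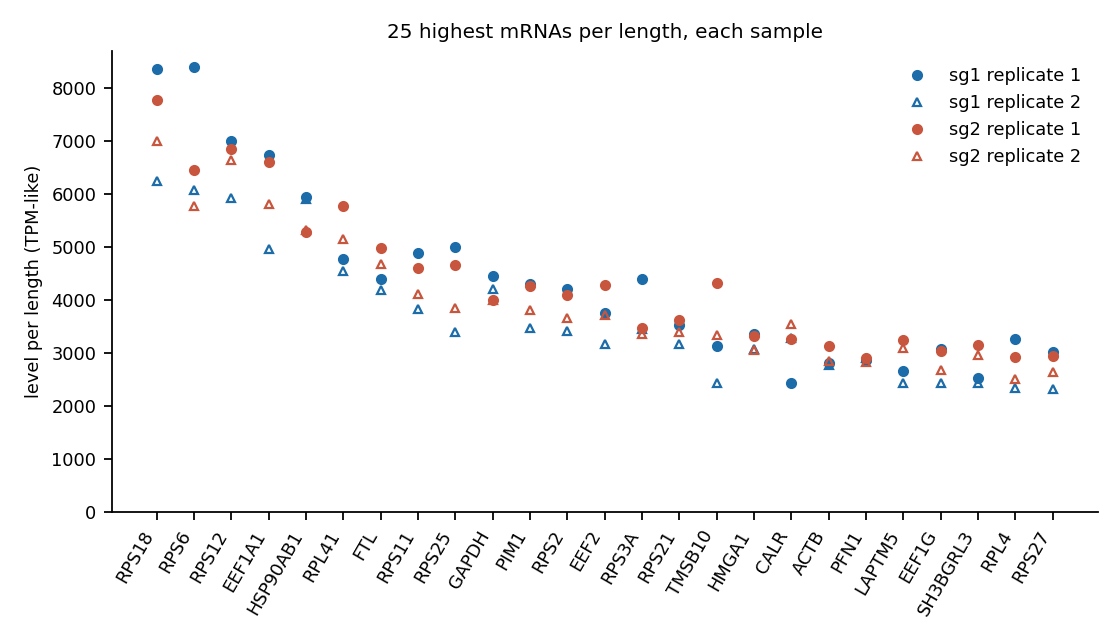
Level per length (TPM-like, y axis from 0) of the 25 highest mRNAs in each of the 4 WTAP samples, with sg1 in blue, sg2 in red, replicate 1 filled and replicate 2 open. Ribosomal proteins and EEF1A1 lead, PIM1 and LAPTM5 stand among them at means of 3965 and 2863, and TMSB10 is the gene whose samples spread most for its level.

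The 5 marker genes of these cells were all detected. HLA-DRA, the alpha chain of the MHC class II receptor HLA-DR (chr6:32407655-32412823), was at 502, 410.0, 568 and 466 CPM in sg1 replicates 1 and 2 and sg2 replicates 1 and 2. S100P, a calcium-binding protein (chr4:6695605-6698897), was at 189, 166, 218 and 193 CPM. GATA1, the master factor of erythroid and megakaryocyte genes (chrX:48644948-48652718), was at 232, 228, 247 and 222 CPM. The ranges of the guides overlapped for HLA-DRA and GATA1, and both sg2 samples lay above both sg1 samples for S100P. CD24, a surface glycoprotein of progenitor and B lineage cells, was at 824, 589, 800.1 and 728 CPM. It has no entry of that symbol in the annotation used, only processed copies, so it has no level per length and reads could be shared with those copies. BCL11A, the repressor of fetal globin genes (chr2:60677655-60781602), was far lower, at 27.8, 29.4, 37.7 and 38.8 CPM. Per length the order was S100P at 1839 ± 178 TPM-like and HLA-DRA at 1766 ± 213, which do not differ beyond their spread, then GATA1 at 676 ± 23.1 and BCL11A at 6.16.

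The factors of the erythroid program were all detected, and the globins, heme enzymes and membrane proteins of red cells were detected in part, at levels from under 1 CPM to 453 CPM. The 9 listed erythroid transcription factors had a list median of 174 TPM-like against 31.4 over all detected symbols. GFI1B, a repressor that works with GATA1, was at 291 to 426 CPM, LYL1 at 196 to 265 CPM and the adapter LDB1 at 122 to 172 CPM. NFE2, which drives globin and platelet genes, was at 190.3 and 148 CPM in the sg1 samples and at 335 and 301 CPM in the sg2 samples. KLF1, the activator of adult globin and membrane genes, was at 52.8, 25.9, 64.8 and 51.0 CPM, with its lowest value in sg1 replicate 2. The 4 samples of GATA1 spread by only 10.7 CPM (SD) around 232.

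Globin mRNA made up a small share of counted reads. The 10 globin symbols together held 110.2, 62.4, 85.5 and 70.1 CPM, or 0.0082% of reads, and 7 of them were detected. HBG2, a fetal gamma chain, was the highest at 62.9, 33.6, 45.8 and 36.2 CPM. The adult chain HBB was at 12.6, 11.5, 15.4 and 13.7 CPM and the embryonic chain HBE1 at 13.6, 3.33, 7.44 and 5.49 CPM, its highest value being in sg1 replicate 1. HBA1 held 1.03 to 3.01 CPM and HBM was listed at 0. HBA1 and HBA2, and HBG1 and HBG2, are near-identical pairs whose reads the counting could split or drop, so their separate values are uncertain. Of the 10 symbols 6 also overlap exons of another gene in the annotation used. Any reads dropped for these reasons would lower the summed share as well, so that share may be understated.

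Heme synthesis was represented by 7 of 8 enzymes. UROD at 129 to 167 CPM and CPOX at 102 to 144 CPM were among them. ALAS2, the erythroid form of the first and rate-limiting enzyme, was low, at 0.952, 0.247, 0.567 and 0.800 CPM. Of 18 red cell surface and membrane genes 15 were detected. The carbonic anhydrase CA1 was at 257 to 386 CPM, the membrane skeleton proteins EPB41 and ANK1 at 361 to 453 and 184 to 235 CPM, and the Rh-associated glycoprotein RHAG at 145 to 179.6 CPM. GYPB at 2.11 to 3.46 CPM and GYPE at 33.1 to 56.1 CPM belong to a family of near-identical genes, as RHD and RHCE do, and shared reads leave each of these values uncertain. The anion exchanger SLC4A1 stayed under 1 CPM in every sample, and AHSP, the chaperone of free alpha globin, had at most 1 read in any sample.

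Some megakaryocyte surface genes had high levels, while others were low, and genes of platelet granule proteins ranged from well detected to low. Of 16 listed genes 11 were detected (68.8%), against 60.8% of protein-coding symbols, and the median over the list was 42.3 TPM-like. ITGA2B, the alpha chain of the platelet fibrinogen receptor, was at 1646, 1146, 1847 and 1565 CPM and ranked 77th of all symbols per length. The platelet glycoprotein GP9 was at 107 to 150.0 CPM and RAB27B, which guides granule release, at 335 to 471 CPM. The beta chain ITGB3 was at 127 and 120.3 CPM under sg1 against 273 and 232 CPM under sg2, and P-selectin (SELP) at 102 and 145 against 267 and 234 CPM. PF4 and PPBP, the main chemokines of platelet granules, reached at most 2.77 and 1.20 CPM, both in sg2 samples. The granule protein MMRN1 was higher, at 23.3 to 44.9 CPM. The surface genes TREML1 and CLEC1B were low as well. GP1BB was listed at 0, but it overlaps SEPT5, which was also listed at 0, so its absence is not informative.

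**Figure D2:**
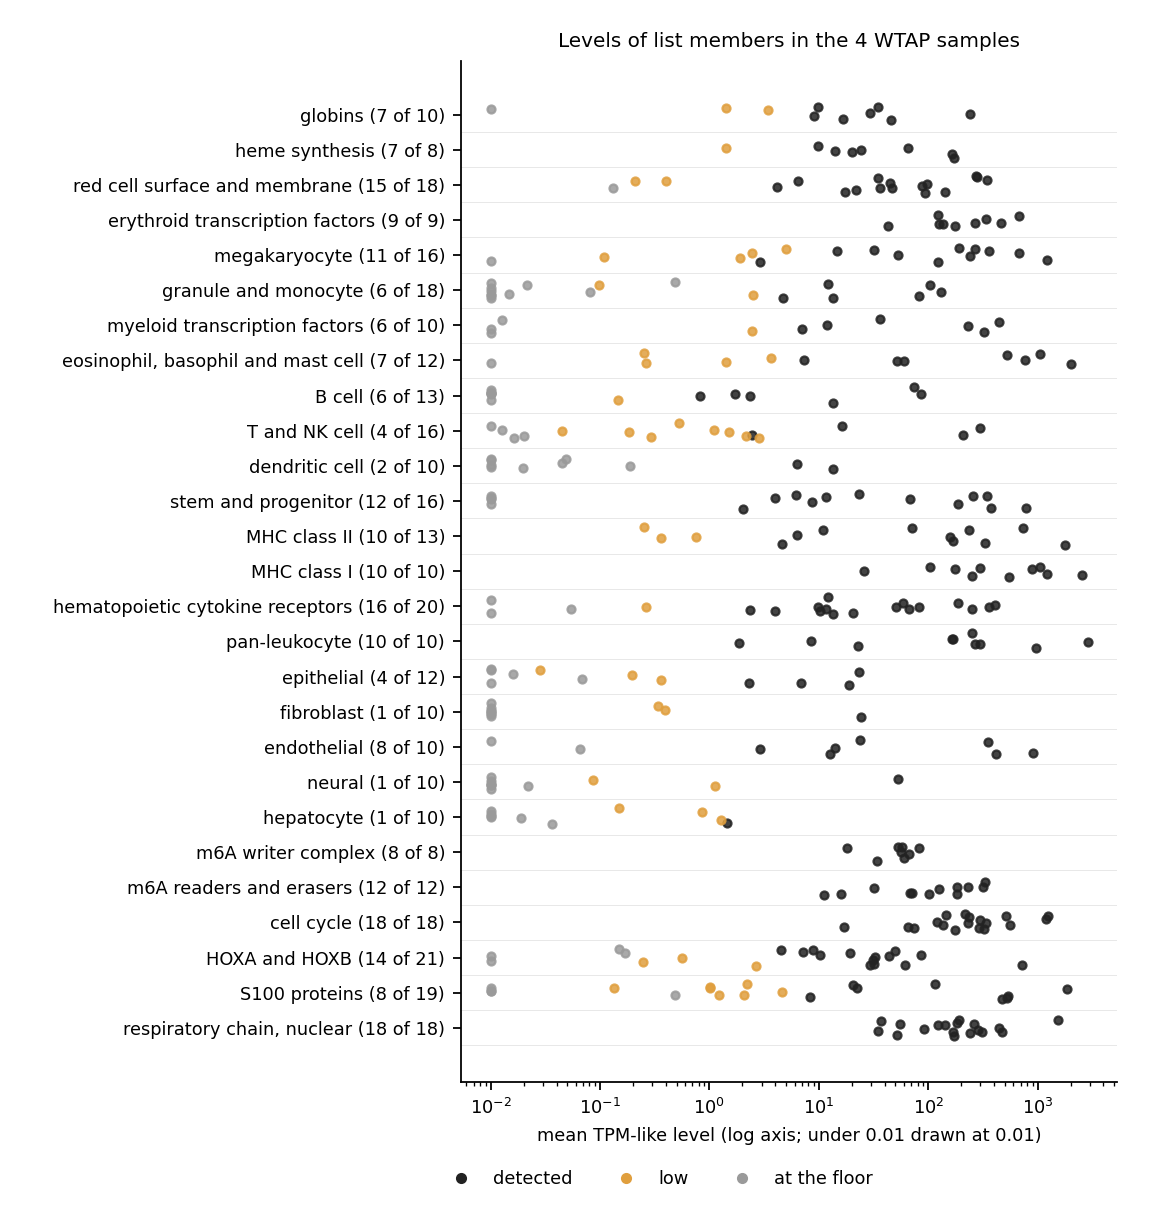
Mean TPM-like level over the 4 WTAP samples (x axis, log; values under 0.01 drawn at 0.01) of each member of 27 gene lists with a length, with the number detected of the number listed in brackets. Black points are detected, orange low and grey at the floor. MHC class I, cell cycle and respiratory chain members are all detected, and the fibroblast, neural and hepatocyte lists have 1 detected member each.

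A few mast cell and basophil genes had high levels. Of 12 listed eosinophil, basophil and mast cell genes 7 were detected (58.3%), near the 60.8% of protein-coding symbols, and the median over the list was 29.5 TPM-like. HDC, which makes histamine from histidine, was at 889, 762, 1017 and 945 CPM and ranked 99th per length. The alpha chain of the high-affinity IgE receptor (FCER1A) was at 169 to 216 CPM, and its beta chain MS4A2 at 13.9, 6.24, 2.46 and 5.94 CPM. The mast cell carboxypeptidase CPA3 was at 162 to 250.4 CPM. The tryptases TPSAB1 at 13.5 to 22.7 CPM and TPSB2 at 16.6 to 29.8 CPM are near copies, and their values are uncertain. PRG2, the major basic protein of eosinophil granules that basophils and other cells also make, was at 1630.2 CPM in sg1 replicate 1 and at 472, 677 and 532 CPM in the other samples. Its mean of 828 ± 542 CPM therefore rests largely on 1 sample. The eosinophil genes EPX, CLC, RNASE2 and IL5RA stayed under 1 CPM and RNASE3 was listed at 0.

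Neutrophil and monocyte products were mostly at the floor, and myeloid regulators were detected at about the share of all protein-coding symbols. Of 18 granule and monocyte genes 6 were detected, 2 were low and 10 were at the floor. MPO, ELANE, PRTN3 and AZU1, the proteins of primary neutrophil granules, had at most 1 read in any sample. S100A8, S100A12 and FCN1 were listed at 0, and CD14 had 1 read in each sg2 sample. A count of 0 of 26.3 M reads allows up to 0.114 CPM. CTSG, a further granule protease, was in contrast at 25.3 to 37.8 CPM, LYZ at 22.6 to 38.8 CPM and CD33 at 163 to 194 CPM. Among 10 myeloid transcription factors 6 were detected. SPI1, which specifies myeloid and B cells, was at 126 to 168 CPM and CEBPB at 169 to 189.7 CPM. CEBPA was at 19.7 to 22.8 CPM. IRF8 and KLF4 were listed at 0.

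Levels of stem and progenitor genes differed widely, for factors and surface genes alike, and the median over the whole list, undetected members included, was 10.2 TPM-like. Of 16 stem and progenitor genes 12 were detected. GATA2, the factor of early progenitors and mast cells, was at 989.9, 674, 925 and 831 CPM, and RUNX1 at 839 to 936 CPM. MYB was at 382 to 449 CPM and the receptor KIT at 423 to 565 CPM. Other factors were lower, with MECOM at 36.5 to 66.2 CPM, MEIS1 at 22.5 to 33.9, ERG at 9.52 to 21.0 and HLF at 2.08 to 4.20 CPM. FLI1, which favors megakaryocytes, held 573 and 484 CPM under sg1 against 863 and 763 CPM under sg2. CD34 was at 109 to 174 CPM. FLT3 stayed at 2.78 to 4.69 CPM, PROM1 had 1 read in 1 sample, and CD38 and SPINK2 were listed at 0. HOXA9 was listed at 0 as well, but its exons overlap a read-through transcript with HOXA10, which was at 23.4 to 28.2 CPM. Of 21 HOXA and HOXB genes 14 were detected. HOXB9 was at 343, 438, 445 and 428 CPM, and per length it stood at 723 ± 82.1 TPM-like with HOXB2 next at 85.9.

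Cytokine receptors were detected for 16 of 20 listed genes. KIT is on this list as well as on that of progenitors. The common beta chain CSF2RB was at 475, 368, 496 and 469 CPM, and the common gamma chain IL2RG held 129 to 186 CPM. The erythropoietin receptor EPOR was at 4.51 to 8.89 CPM. IL1RL1, the IL-33 receptor of mast cells, was at 70.0 to 83.5 CPM. IL2RA was at 28.9 and 41.8 CPM under sg1 against 84.3 and 78.6 CPM under sg2. IL7R was at 3.58 CPM in sg1 replicate 1 and at 14.7 to 18.9 CPM in the others. CSF2RA and IL3RA were listed at 0 and CRLF2 had 1 read, but all 3 have copies on X and Y and their level cannot be judged.

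Antigen presentation genes were mostly detected, at levels that differed between class I and class II and among class II genes. All 10 MHC class I genes were detected, at a summed 5630.2, 5419, 6879 and 6496 CPM. Of 13 MHC class II genes 10 were detected. CD74, the invariant chain, was at 654 to 829 CPM and HLA-DPA1 at 360.3 to 499.8 CPM. The class II transactivator CIITA was at 27.0 to 34.1 CPM. HLA-DQB1 held 10.5 to 13.6 CPM and HLA-DMB 3.05 to 6.24 CPM, while HLA-DQA1, HLA-DOA and HLA-DOB were low. Reads of HLA genes depend on how far the alleles of the line differ from the reference, so levels within the family are uncertain. All 10 pan-leukocyte genes were detected at 1 CPM or more, but unevenly. LAPTM5 held 1710.2 to 2372 CPM, while PTPRC, which encodes CD45, was at 5.64, 7.35, 4.47 and 7.77 CPM. CD53 was at 4.88 CPM in sg1 replicate 1 and at 12.3 to 13.4 CPM in the others, and CD48 was likewise lowest in that sample, at 1.98 against 6.74 to 8.52 CPM.

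**Figure D3:**
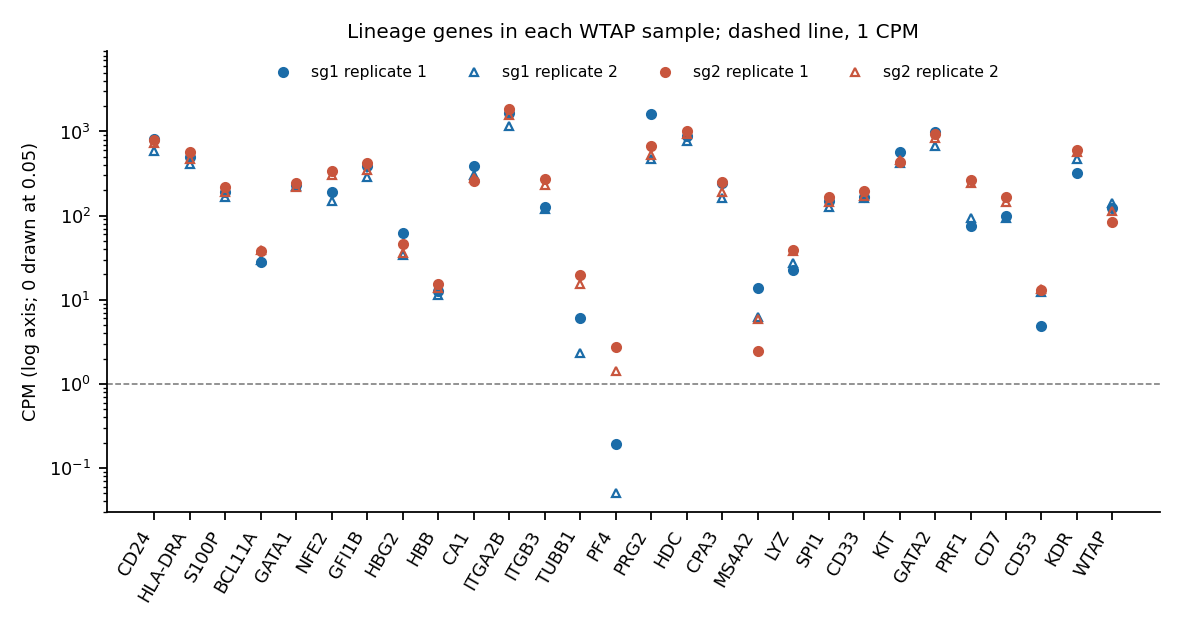
CPM (y axis, log; 0 drawn at 0.05) of 28 lineage genes in each of the 4 WTAP samples, with sg1 in blue, sg2 in red, replicate 1 filled and replicate 2 open, and a dashed line at 1 CPM. Most genes keep their 4 samples close together, PRG2 and CD53 have sg1 replicate 1 apart, and ITGB3, TUBB1 and PRF1 have both sg2 samples above both sg1 samples.

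Lymphoid genes were detected in part. Of 13 B cell genes 6 were detected, led by the antigen receptor chains CD79B at 26.0 to 46.3 CPM and CD79A at 14.1 to 34.6 CPM. PAX5 was at 1.26 to 2.51 CPM, and MS4A1, EBF1, BLNK, VPREB1, RAG2 and DNTT were listed at 0. Of 16 T and NK cell genes 4 were detected. PRF1, the pore-forming protein of killer cells, was at 74.6 and 92.7 CPM under sg1 against 263 and 241 CPM under sg2, and CD7 at 98.8 and 92.7 against 165 and 147 CPM. The subunits CD3D, CD3E and CD3G of the T cell receptor complex were all below 1 CPM, GZMB was listed at 0 and GNLY was low. Of 10 dendritic cell genes 2 were detected, the factor TCF4 at 31.6 to 52.2 CPM and ITGAX at 11.1 to 33.5 CPM.

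By the count detected, genes of the vessel wall were the exception among tissues other than blood. Of 10 endothelial genes 8 were detected, at a summed 1471, 1692, 2182 and 2009 CPM. The receptor TIE1 was at 559.5, 528, 744 and 644 CPM, ESAM at 496 to 647 CPM and the VEGF receptor KDR at 323, 470.2, 595 and 569 CPM. The endothelial cadherin CDH5 was at 8.57 to 21.9 CPM and VWF at 3.09 to 10.8 CPM, and CLDN5 was listed at 0. VWF is on the megakaryocyte list as well, and PECAM1 and ESAM are known on platelets, so the list does not separate these lineages. Of 12 epithelial genes 4 were detected, the highest being the splicing factor ESRP1 at 20.3 to 30.9 CPM. The others were the keratins KRT18 and KRT8, and MUC1. Their means under sg1 and sg2 were 13.8 and 11.8 CPM for KRT18, 3.30 and 3.71 for KRT8, and 3.68 and 3.67 for MUC1. The keratins KRT5, KRT14 and KRT19 were listed at 0. The fibroblast list gave only PDGFRB, at 22.7 to 53.3 CPM, the neural list only OLIG2, at 32.0 to 43.6 CPM, and the hepatocyte list only transferrin (TF), at 6.59 to 9.39 CPM. COL1A2, SOX2 and APOB, defining markers of those lists, were listed at 0.

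All members of the m6A, cell cycle and respiratory chain lists were detected. The 8 subunits of the m6A writer complex ranged from METTL14 at 18.0 TPM-like to WTAP at 81.6, with METTL3 at 34.4. In CPM, METTL3 was at 47.3, 37.3, 51.3 and 42.5 and METTL14 at 27.7, 33.5, 23.4 and 24.1. All 12 m6A readers and erasers were detected. HNRNPA2B1 was at 669 to 1186 CPM and IGF2BP1, a reader of fetal and tumor cells, at 371 to 420.2 CPM. The eraser ALKBH5 was at 75.6 to 86.8 CPM and FTO at 41.6 to 59.0 CPM. All 18 cell cycle genes were detected, at a summed 5966, 7599, 4966 and 5736 CPM, highest in sg1 replicate 2 and lowest in sg2 replicate 1. The proliferation marker MKI67 was at 657, 908, 336 and 535 CPM. All 18 nuclear respiratory chain genes were detected, and their sums of 3154 to 3428 CPM differed little. Of 19 S100 genes 8 were detected, and S100P stood far above S100A4 and S100A6 per length, at 1839 against 535 and 522 TPM-like.

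The WTAP files list 551 symbols that the NTC files do not, and these took 0.448% ± 0.012 of reads with 143 of them detected (26.0%). The 10 highest in CPM were KIAA1432, GCN1L1, GPR56, TMEM66, SMEK2, KIAA0247, SMEK1, PTPLAD1, NARG2 and CD97. KIAA1432 was at 292 to 351 CPM and GCN1L1, an activator of the amino acid stress kinase GCN2, at 221 to 245 CPM. GPR56 and CD97 are adhesion receptors, at 188 to 249 and 86.4 to 132 CPM. All 10 are older symbols of genes since renamed.

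The 4 samples agreed closely for most genes. Over the 12800 genes with a mean of at least 1 CPM, the median coefficient of variation (CV) over the 4 samples was 15.3%, with quartiles of 9.62% and 23.4%. Counting alone would give a median of 4.09%. The median CV fell from 25.4% at 1 to 10 CPM to 13.9% at 10 to 100 CPM and 11.7% at 100 CPM or more. A CV over 50% was found for 325 genes (2.54%), and 266 of them were below 10 CPM. The samples of sg1 differed from each other by a median of 0.21 on the log2 scale, with 212 genes apart by more than 1, and those of sg2 by 0.15, with 34 genes. The guide means differed by 0.21, with 194 genes. That difference is between means of 2 samples and the others are between single samples, so the sizes are not directly comparable. Pearson correlations on log2(CPM + 1) were 0.984 within sg1, 0.991 within sg2 and 0.971 to 0.984 between guides, over genes that are not independent replicates. A principal component analysis put the guides apart on component 1 (60.2% of variance), and component 2 (30.2%) had both replicates of sg1 at its ends.

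Among protein-coding genes with a mean of at least 10 CPM, the 10 most variable were PFKFB4, MMRN2, SLC6A8, SLC7A11, CHML, TUBB1, FAM111B, APLNR, FOLR2 and KIF14. PFKFB4, a glycolytic regulator induced by low oxygen, was at 48.0 CPM in sg1 replicate 1 and at 9.32, 15.5 and 10.7 CPM in the others. SLC6A8, CHML and APLNR were also highest in that sample. SLC7A11, the cystine importer, was at 321 and 723 CPM under sg1 against 117 and 234 CPM under sg2. Both sg1 samples lay above both sg2 samples. MMRN2, an extracellular matrix protein of vessels, was at 7.08 and 14.9 CPM under sg1 against 63.0 and 51.5 CPM under sg2. FOLR2, a folate receptor of myeloid cells, was at 26.1 and 24.6 against 101 and 71.8 CPM. KIF14, a mitotic kinesin, went the other way, at 44.9 and 52.4 against 12.2 and 14.7 CPM.

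**Figure D4:**
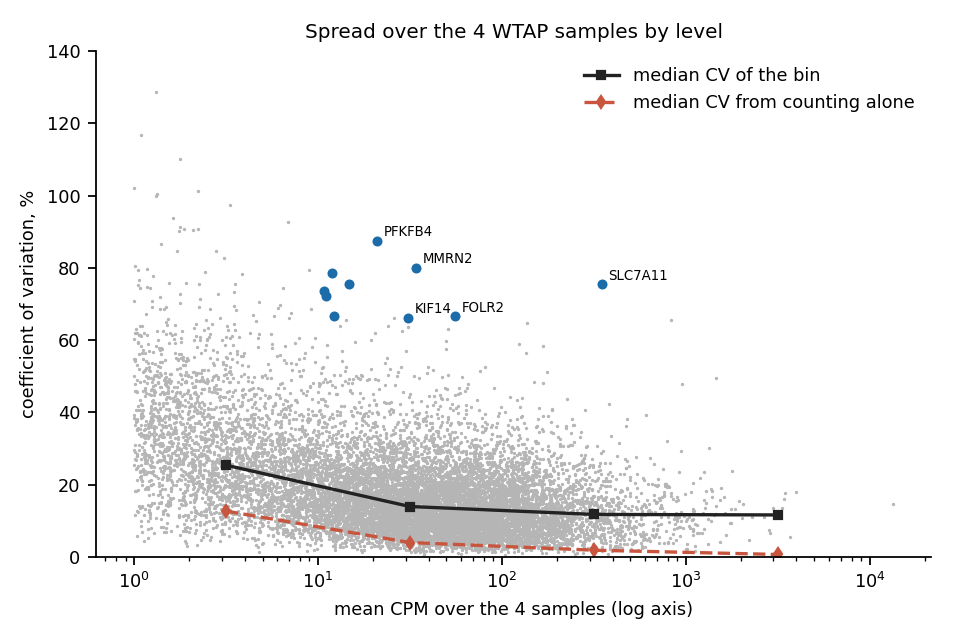
Coefficient of variation over the 4 WTAP samples (y axis, percent) against mean CPM (x axis, log) for genes with a mean of at least 1 CPM, those of chromosome Y and XIST left out. Black squares are medians per bin of level, red diamonds the median expected from counting alone, and blue points the 10 most variable protein-coding genes with a mean of at least 10 CPM. Measured medians lie above the counting line in every bin.

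The samples of the guides were compared with limma on log2(CPM + 1), 2 samples against 2. Nothing says that the replicates of a guide were separate cultures, so the p-values may rest on technical spread. A difference between guides cannot then be told apart from one between cultures or harvests. At an adjusted p of 0.01, 0 of 12800 genes were called (0%), although 2821 had an unadjusted p under 0.05. The quasi-likelihood test of edgeR also called 0 genes at 0.01, and DESeq2 called 415. With the replicate number as a block limma called 1225 genes (658 higher and 567 lower with sg2), although nothing but the shared number pairs these samples, and leaving out 1 sample gave 11 to 387 genes, the fewest without sg2 replicate 1 and the most without sg1 replicate 2. The count of 0 therefore depends on the model and on single samples. At an adjusted p of 0.05, limma called 163 genes higher with sg2 (1.27%) and 63 lower (0.492%). Calls at that looser level are a description of where the guides lay furthest apart, and none reached the threshold set for this comparison. With no filter on low values, or without the mean-variance trend, 0 genes passed 0.05 by limma, with 3088 and 2619 at an unadjusted p under 0.05. The median difference over all genes tested was 0.03, with 6881 of 12800 genes higher with sg2.

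At the looser threshold 4 of 12 tested megakaryocyte genes were higher with sg2 and none was lower. TUBB1, the platelet tubulin, differed by 1.90 ± 0.34 (SE, adjusted p of 0.043 by limma) and ITGB3 by 1.02 ± 0.13 (adjusted p of 0.024 by limma). SELP and GP1BA were the others, and the median of the list was 0.54 with all 12 genes higher in sg2. PRF1 differed by 1.59 ± 0.14 and had the lowest adjusted p of the list genes, 0.016 by limma. IL2RA differed by 1.20 ± 0.18 (adjusted p of 0.032 by limma), and MMRN2 by 2.36 ± 0.30 (adjusted p of 0.024 by limma). The endothelial list had a median of 0.64 with 0 of 8 genes past the looser threshold. NFE2, ITGAM, ITGAX, CD7, HLA-DMA and YTHDF2 were the other genes of the 28 lists past it, all higher with sg2. MMRN2 is in none of the lists and was named for its spread over these same samples, as were FOLR2 and KIF14. FOLR2 differed by 1.71 and KIF14 by -1.78 (adjusted p of 0.024 and 0.022 by limma). NARG2, one of the symbols absent from the NTC files, differed by -0.75 (adjusted p of 0.038 by limma). Among further genes grouped after their values were seen, NDRG1, CD44 and ENG were higher with sg2, by 1.12, 0.81 and 0.80 with adjusted p of 0.041, 0.045 and 0.038 by limma. The 18 cell cycle genes had a median of -0.33 with every gene lower in sg2 and none past the looser threshold. The red cell surface list had a median of -0.18. The 8 m6A writer genes had members on both sides of 0 and none past the looser threshold. RBM15 differed by 0.58 ± 0.16 and RBM15B by 0.51 ± 0.13, while ZC3H13 differed by -0.54 ± 0.13 (adjusted p of 0.10, 0.080 and 0.076 by limma). In these bulk samples a gene expressed in fewer cells and a lower level per cell cannot be told apart.

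**Figure D5:**
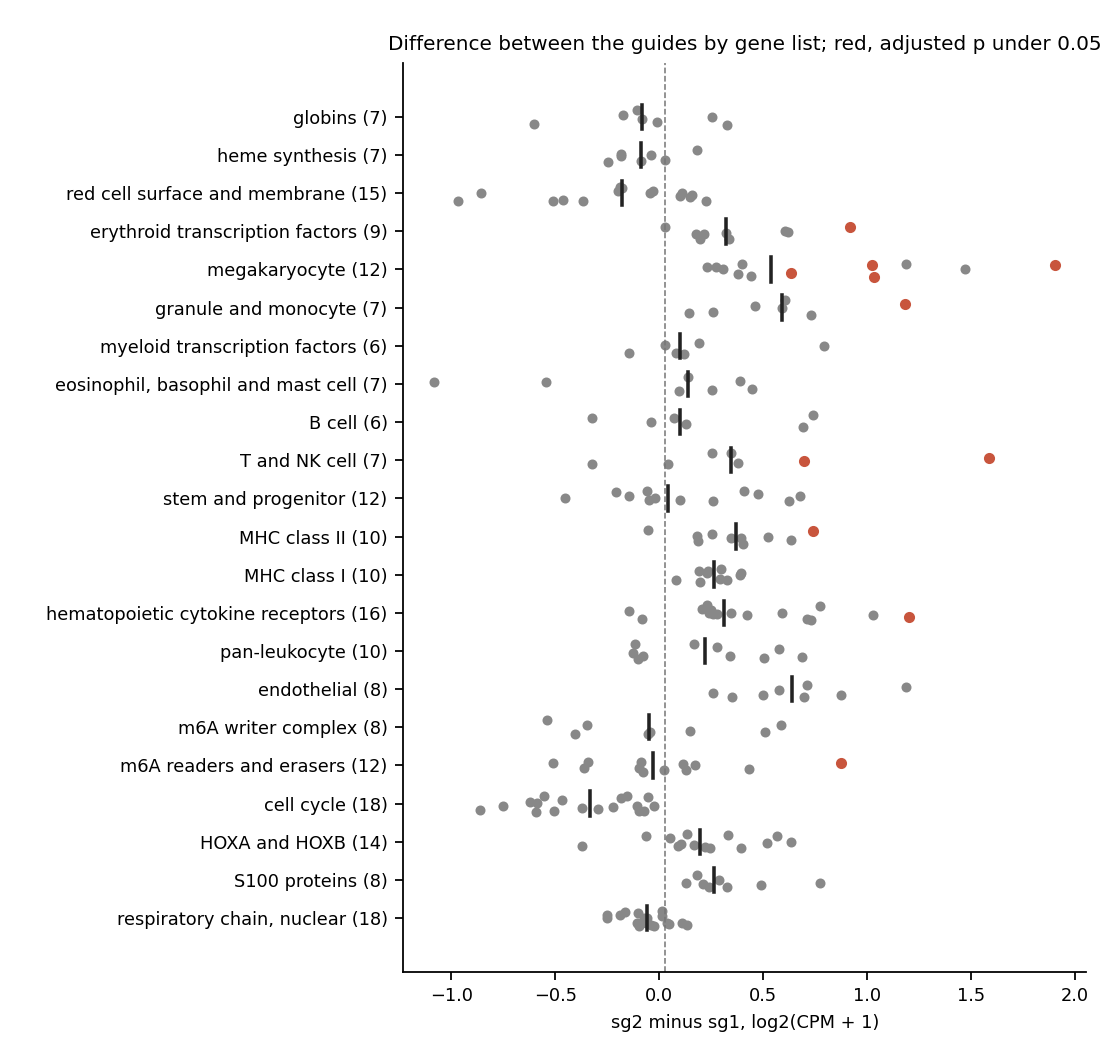
Difference between the guides (sg2 minus sg1, log2(CPM + 1), x axis) for the tested members of each list with at least 5 of them, numbers tested in brackets. Black bars are list medians, the dashed line is the median of 0.03 over all genes, and red points passed an adjusted p of 0.05 by limma. Megakaryocyte and endothelial genes lie to the right and cell cycle genes to the left, and no point passed 0.01.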

How the data were processed

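Per the study's methods, alignment to hg19 by the authors used TopHat2, and HTSeq counted reads per UCSC gene, and edgeR is a further tool that the submitters' processing notes name. Versions were not given in the sources used here. The labels and the methods name different RNA extraction kits. The deposited values are CPM per gene symbol. All of them (100%) came out as whole reads, within 1% of a read, when divided by the smallest positive value of the file, so whole reads were recovered. Groups came from the sample titles. Only the symbol names of the NTC files were used. Of 25370 symbols 21539 matched GENCODE v44 (lifted to GRCh37) by current symbol and 1498 by an older one, holding 98.9% of reads together, and coordinates are GRCh37, to which hg19 corresponds. Genes of chromosome Y and XIST were counted and not named, and the results of some other genes are not reported here, though they remain in the counts and medians of lists. In all, 28 gene lists were described by counts, with 5 genes as the list of markers. The members and lists were chosen with earlier results of these data known.

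The genes named were WTAP, the list members, the 25 highest in CPM and per length, the 10 highest symbols absent from the NTC files, the 10 most variable protein-coding genes with a mean of at least 10 CPM, and the largest differences between guides past the threshold, of which there were none. Guides were compared with limma 3.58.1 (R 4.3.3, mean-variance trend, pseudocount of 1, mean of at least 1 CPM, Benjamini-Hochberg adjustment, two-sided adjusted p of 0.01). Fold changes on log2(CPM + 1) understate those of low genes. Alternatives included edgeR 4.0.16 and DESeq2 1.42.0 on recovered reads. Replicates differed by more than sampling noise (chi-square per degree of freedom of 33.5 for sg1 and 12.4 for sg2). Fits were also run on simulated counts, with a smaller spread and larger changes than most of those here, so that run does not bear on the calls above. Tables used Python 3.11.15 with pandas 2.3.3 and numpy 2.4.6.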

Additional observations from a re-analysis of the deposited data

Results flagged for a closer look

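In a group of 4 samples, a value was singled out where the gap of the highest or lowest sample to its nearest neighbour was a larger part of the group's whole range than Dixon's critical value at 95% allows. Of 344 genes examined, 11 had such a sample, a smaller share than the 1 in 20 or so that chance gives. PFKFB4, CHML and APLNR were examined because of their spread over these same samples. P4HA1 and INSIG1 belong to groups put together after the values were seen. The counts by sample are therefore a description and no test of a sample. For 10 of the 11 genes the sample apart was sg1 replicate 1, the deepest of the samples. That sample was the lowest for CD53 at 4.88 CPM against 12.3 to 13.4 in the others, for EPB41 at 361 against 441 to 453, for HOXB9 at 343 against 428 to 445, for MMRN1, a platelet granule protein, at 23.3 against 42.7 to 44.9, and for TMEM66 at 127 against 191 to 198. It was the highest for APLNR, a peptide receptor, at 24.5 against 7.35 to 9.83, for CHML at 31.1 against 7.88 to 11.7, and for PFKFB4 at 48.0 against 9.32 to 15.5. It was also the highest for P4HA1, a collagen hydroxylase, at 88.1 CPM against 48.0 to 54.5. INSIG1, a regulator of sterol synthesis, was highest there as well, at 112 against 44.2 to 54.4. The remaining case was IL1RL1, at 83.5 CPM in sg1 replicate 2 against 70.0 to 72.0. The part of depth, culture or guide in these values was not tested.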

How the results depend on the processing

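Between the guides, the count of 0 genes at an adjusted p of 0.01 held with a pseudocount of 0.25, a mean of at least 5 CPM, no filter, median-of-ratios rescaling, no mean-variance trend and the quasi-likelihood test of edgeR. It was 415 with DESeq2 (220 higher and 195 lower with sg2) and 226 at an adjusted p of 0.05. Leaving out 1 sample gave 11 genes without sg2 replicate 1, 237 without sg2 replicate 2, 367 without sg1 replicate 1 and 387 without sg1 replicate 2, with the lone sample of a guide assumed to vary like the other guide. With the replicate block it was 1225 genes (658 higher, 567 lower). Replicate numbers are shared only by name. Deviations of same-numbered samples correlated at 0.33 over 12800 genes, and with 2 pairs this does not establish a pairing. The cause of these changes was not tested. The count of genes with a CV over 50% fell from 325 to 59 where only genes with a mean of at least 10 CPM were kept, and was 310 after rescaling. Detected symbols numbered 11559 to 12924 over all alternatives, thinning to the shallowest sample included, and detected list members 228 to 243 against 236. By list, the count moved by over 1.5 times for globins (4 at 2 CPM), T and NK cell genes (7 at 0.5 CPM) and hepatocyte genes (2 at 0.5 CPM). Depth limits detection to 0.114 to 0.189 CPM.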

Other observations

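Some further gene groups were put together after the values were seen and are given as a description. Of 23 genes for widely used surface proteins 20 were detected. The transferrin receptor TFRC was at 487, 624, 341 and 449 CPM in sg1 replicates 1 and 2 and sg2 replicates 1 and 2, and THY1 at 307, 387, 499 and 488 CPM. The adhesion receptor CD44 was at 203 and 188 CPM under sg1 against 388 and 302 CPM under sg2, and endoglin (ENG) at 192 and 193 against 371 and 305 CPM. CD36, a scavenger receptor of red cell precursors and platelets, and CD200 stayed under 1 CPM.

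Of 14 genes of the amino acid stress response all were detected, and 9 of them were highest in sg1 replicate 2, which was the highest sample for 3872 of 12800 genes (30.3%). Their summed level was 3237, 4048, 2901 and 3152 CPM. ATF4, the factor at the head of that response, was at 657, 589, 521 and 522 CPM, and the serine synthesis enzyme PSAT1 at 436, 672, 567 and 613 CPM. Without SLC7A11 the differences between samples are smaller, since that gene alone ranged from 117 to 723 CPM.

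Of 20 genes known to respond to low oxygen 18 had a mean of at least 1 CPM, and 9 of these were highest in sg1 replicate 1, which was the highest sample for 2781 of 12800 genes (21.7%). BNIP3 was at 50.8 CPM there and at 20.5, 21.4 and 11.2 CPM in the others, and LDHA at 597 against 500, 417 and 401 CPM. Others were lowest in that sample, NDRG1 at 7.92 against 10.3, 21.9 and 19.8 CPM and SLC2A3 at 285 against 356, 382 and 375 CPM. The hypoxia marker CA9 was listed at 0 and VEGFA varied little, at 210 to 259 CPM. All 20 genes of sterol synthesis and uptake were detected, with summed levels of 2488 to 2712 CPM. Of these, 7 and 6 were highest in sg1 replicates 1 and 2, and 6 and 1 in sg2 replicates 1 and 2.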
